A study of Mus musculus with 661 samples.

Results

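Circadian clock genes were followed through 6 sorted stromal populations of young and old mouse bone marrow. The 10 genes were taken by symbol: the activators *Arntl* and *Clock*, the repressors *Per1*, *Per2*, *Per3*, *Cry1* and *Cry2*, the nuclear receptor genes *Nr1d1* and *Nr1d2*, and the output gene *Dbp*. Each was found once, which makes them 10 of the 45771 nuclear gene symbols in the count table.

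The proteins of *Arntl* (BMAL1) and *Clock* bind DNA as a pair and switch on the *Per*, *Cry*, *Nr1d* and *Dbp* genes. The PER and CRY proteins then hold that pair back, while the proteins of *Nr1d1* and *Nr1d2* (REV-ERB alpha and beta) shut *Arntl* down, so that in most tissues *Arntl* transcripts peak at about the opposite time of day from those of *Nr1d1* and *Dbp*. In bone marrow, *Cxcl12* of stromal cells and the release of blood stem cells into the circulation are known to follow the time of day.

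The study compared niche cells of young (about 2 months) and old (about 24 months) C57BL/6 wild type mice. Single cells were sorted from collagenase-treated bone and marrow into wells, and full transcripts were read with a protocol based on Smart-Seq2 without molecular identifiers. The 336 young and 325 old cells fell into 12 groups of population and age. The time of day of collection is not given in the sources used here, so no clock phase can be assigned to any group.

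From the endosteum, the inner face of the bone, came mesenchymal stromal cells positive for Sca-1 and CD51 (MSC-S, 59 young and 59 old), multipotent osteoprogenitors without Sca-1 but with CD51 and PDGFRα (mOPr, 26 and 26), osteoprogenitors without PDGFRα (OPr, 44 and 29) and arteriolar endothelial cells with CD31 and high Sca-1 (AEC, 84 and 82). From the central marrow came stromal cells positive for LepR and PDGFRα (MSC-L, 53 and 58) and sinusoidal endothelial cells with CD31 and low Sca-1 (SEC, 70 and 71). Cells held 57517 to 1488549 nuclear counts each, with a median of 416359, and counts were summed over the cells of a group and given as CPM, counts scaled to a common total per group. Each GEO sample is 1 cell and the labels name no mouse, so a population of one age is 1 sample and no difference below was tested. The 95% intervals cover counting error only, since PCR reads without molecular identifiers are not independent molecules.

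The library number in each cell's title fell into 3 ranges (below 19000, 19000 to 26000, above 26000), whose meaning the labels do not give. MSC-L, MSC-S, mOPr and OPr had cells in ranges 1 and 2, AEC in all 3 ranges and SEC in range 3 alone. In order of library number, cells of a single population and age followed each other in 35 runs of at least 8 cells, and these runs give the spread within a group.

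Each sort with a marker list of its own carried those markers, and some lists were also high in other sorts. At both ages, all 6 markers of the own list stood at 10 CPM or more in MSC-S (summed to 2611 CPM in young and 3078 CPM in old cells), OPr (4982 and 3513 CPM) and AEC (2911 and 3507 CPM). There was no separate list for mOPr. In mOPr all 6 markers of the osteoprogenitor list stood at 10 CPM or more at both ages, with sums of 11062 and 13253 CPM. All 6 endothelial markers did so in AEC and SEC, and 5 of the 6 SEC markers in SEC, where *Clec4g* was at 0 in young cells. Mesenchymal markers summed to 159.9 and 303 CPM in young and old AEC and to 647 and 613 CPM in young and old SEC. In the mesenchymal sorts they ranged from 1744 CPM in old OPr (9684 CPM in young OPr) to 33924 CPM in young mOPr. The osteoprogenitor list was no lower in MSC-L than in OPr, with 11098 CPM in young MSC-L, *Ibsp* on top, and 7142 CPM in old MSC-L, *Spp1* on top. The 6 markers of MSC-L summed to 57359.5 CPM in young MSC-L and 47105 CPM in old MSC-L, with *Cxcl12* the most abundant. The same list summed to 998 CPM in young mOPr against 21133 CPM in old mOPr, and to 5589 CPM in young OPr against 22695 CPM in old OPr, and it stood at 6749 CPM in young SEC. By the study's cluster labels, 14 of 26 old mOPr and 10 of 29 old OPr cells lay in clusters M1 and M2, which the study called MSC-L-like, against 2 of 26 young mOPr and 3 of 44 young OPr cells. Sorting took cells without Ter119 and CD45 on their surface, a gate meant to leave blood cells out. Even so, 8 old OPr cells carried at least 7 of 15 hematopoietic markers, and in old OPr all 15 markers reached 10 CPM, with a sum of 11152 CPM and *S100a9* on top at 4041 CPM. All 8 of those cells lay among the 19 old OPr cells of clusters M3 to M5, which the study called OPr-like.

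Per kilobase of exon, the scale that allows genes to be compared, *Nr1d1* had the highest level of the 10 genes. Over all cells its level was 134 CPM per kb, ahead of *Dbp* at 34.3, *Per1* at 32.8, *Nr1d2* at 21.6, *Cry2* at 19.2, *Per3* at 11.1, *Clock* at 8.05, *Per2* at 6.66, *Cry1* at 6.54 and *Arntl* at 2.49 CPM per kb. *Nr1d1* ranked first in 12 of 12 groups and *Arntl* ranked 9 or 10 in 12 of 12. Neighbours between them did not hold a fixed order: *Dbp* spanned 18.6 to 65.3 CPM per kb over the 12 groups and *Per1* 19.9 to 56.9 CPM per kb. *Arntl* and its repressor thus sat at opposite ends of the order.

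**Figure D1:**
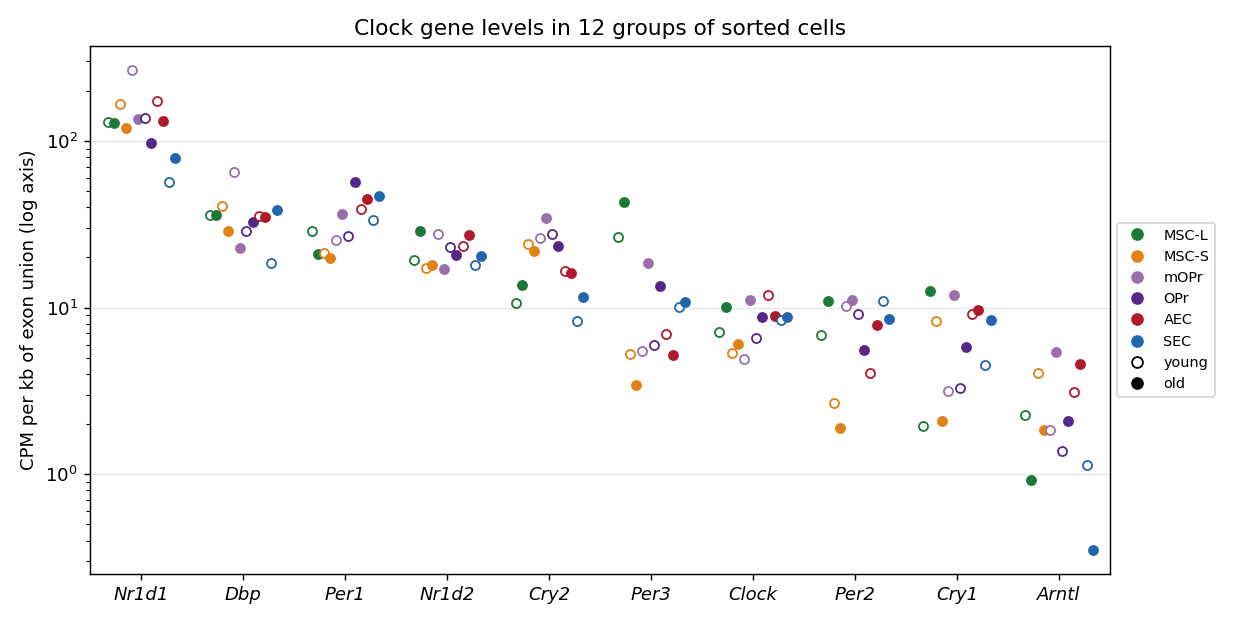
Level of each of the 10 clock genes in CPM per kb of exon (log axis) in the 12 groups, open circles for young and filled circles for old, with colours for the sorted populations. *Nr1d1* lies highest in all 12 groups, *Per3* is highest in MSC-L, and *Arntl* is lowest or next to lowest in all 12.

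A count of *Nr1d1* was found in 88.4% of cells, of *Nr1d2* in 85.6%, of *Per1* in 84.3%, of *Clock* in 75.2% and of *Dbp* in 68.4%, but of *Cry1* in 29.7% and of *Arntl* in 18.6%. *Dbp*, next to *Nr1d1* by level per kb, was thus found in fewer cells than *Clock*. Without division by exon length *Dbp* was also the lower of these 2, at 103 CPM against 110 CPM for *Clock* over all cells. A cell had counts of 1 to 10 of the genes with a median of 6, and 11 cells had counts of all 10. At this depth a cell without a count cannot be told apart from a cell without the transcript.

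Counting ignored strand, and 4 of the genes share exon bases with a gene on the other strand. *Dbp* shares 539 exon bases, 18% of its exons, with *Sphk2*, and *Nr1d1* shares 263 bases, 8.55% of its exons, with *Thra*. *Cry2* shares 4.67% with *D930015M05Rik* and *Arntl* shares 0.44% with *Gm45355*. The part of these neighbours in the levels was not tested.

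Old and young levels were compared in each population, and a gene was called past 2-fold when the log2 ratio of old over young (with 1 CPM added to both) was at least 1 in size. Of 60 such ratios, 10 genes in 6 populations, 13 were past 2-fold. In MSC-L 2 of 10 clock genes were past 2-fold (*Arntl* lower and *Cry1* higher in old cells) against 25.4% of all genes tested, and in MSC-S 2 of 10 (*Arntl* and *Cry1*, both lower) against 19.7%. In mOPr 5 of 10 were (*Arntl*, *Clock*, *Per3* and *Cry1* higher, *Dbp* lower) against 44.5%, and in OPr 2 of 10 (*Per1* and *Per3* higher) against 45.2%. In AEC 0 of 10 were against 21.1%, and in SEC 2 of 10 (*Dbp* higher, *Arntl* lower) against 20.7%. None of these counts of 10 genes was tested against the share of all genes.

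Directions were also compared between library-number ranges. In the 5 populations with more than 1 range, 24 of 50 gene ratios kept a single sign in every range. By population these were 4 of 10 in MSC-L against 52.6% of all genes tested, 7 of 10 in MSC-S against 49.9%, 6 of 10 in mOPr against 55.5%, 4 of 10 in OPr against 55.8%, and 3 of 10 over the 3 ranges of AEC against 26.3%. Of the 11 ratios past 2-fold in those populations, 6 had the same sign in each range, and these were *Arntl* and *Cry1* in MSC-S, *Per3* and *Dbp* in mOPr, and *Per1* and *Per3* in OPr. In MSC-L neither of the 2 ratios past 2-fold did. The share of all genes that met both rules together is not given. *Arntl* fell below the filter of 100 counts in 5 cells in range 1 of MSC-L, mOPr and OPr, in range 2 of OPr and in range 3 of AEC, and its signs there are counted all the same.

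**Figure D2:**
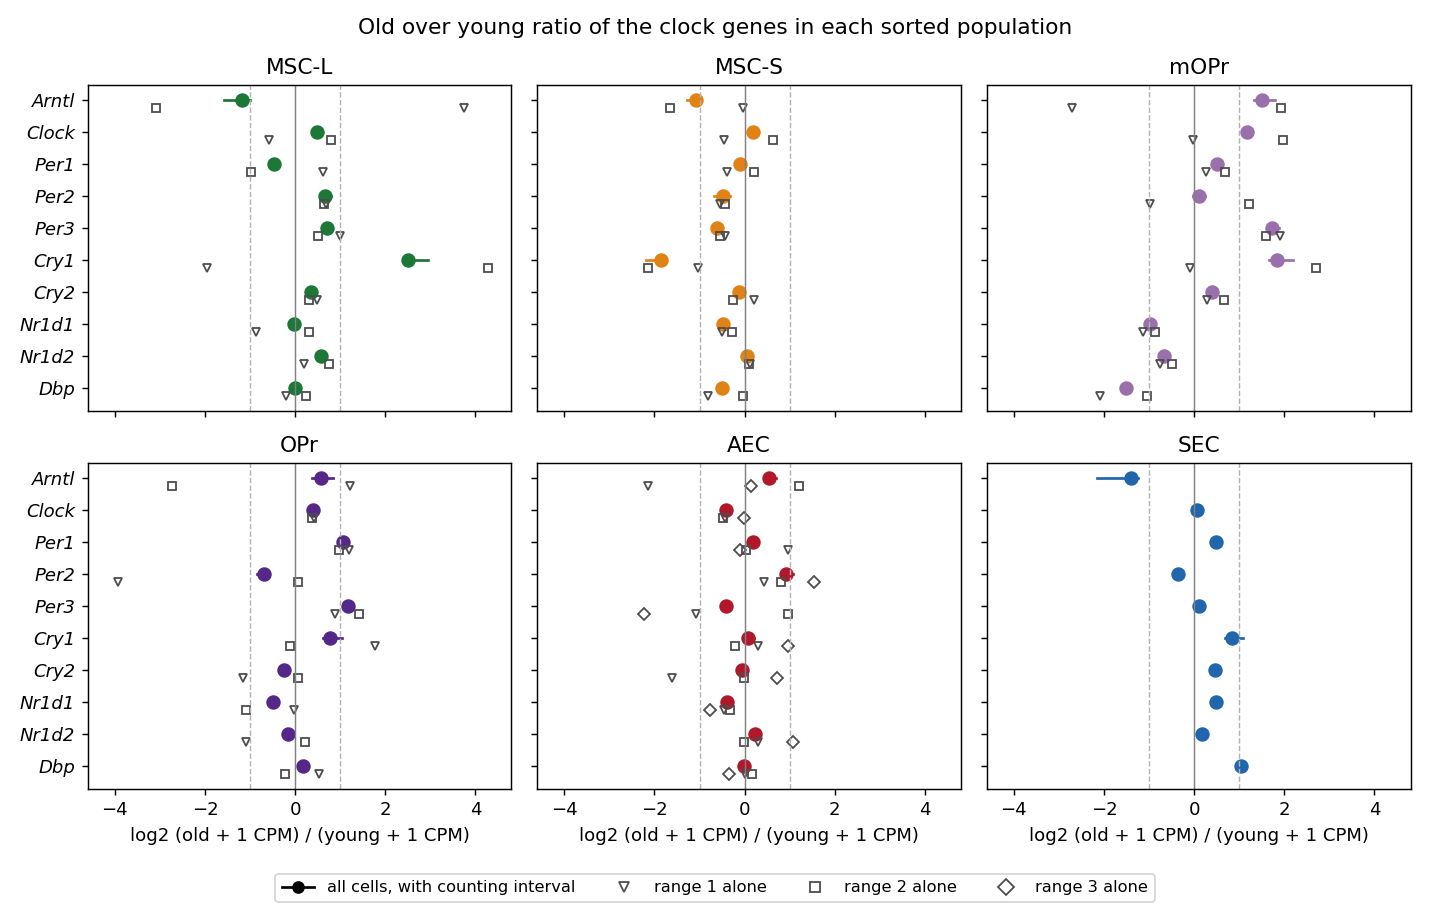
Log2 ratio of old over young for each clock gene in the 6 sorted populations, filled circles for all cells with bars for the 95% counting interval and open symbols for each library-number range alone, dashed lines at 2-fold. The ranges of *Arntl* and *Cry1* in MSC-L lie on opposite sides of 0, whereas both ranges of *Per3* in mOPr lie at 1.59 or above.

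Runs of library numbers gave a stricter view, because a gene could be asked to have all its old runs on 1 side of all its young runs. In MSC-L 1 of 10 clock genes (*Per3*) was separated in this way, where 12.8% of all genes were, and in MSC-S 1 of 10 (*Cry1*) where 7.81% were. In mOPr 4 of 10 (*Per1*, *Per3*, *Nr1d1* and *Dbp*) were separated against 38.5% of all genes, over only 2 young and 2 old runs, and in OPr 2 of 10 (*Per1* and *Per3*) against 31.7%. In AEC 0 of 10 were against 2.87%, and in SEC 1 of 10 (*Dbp*) against 13.1%. With 10 genes and 3 runs or fewer at each age outside AEC, a single gene moves such a count past the share of all genes.

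The activators come first. *Arntl*, the partner that gives the loop its rhythm, ranged from 2.65 CPM in old SEC to 40.8 CPM in old mOPr. A single cell held from 19.8% to 97.9% of the *Arntl* counts of a group, and in old OPr 1 cell held 331 of 338 counts. These levels therefore rest on few cells.

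In MSC-L, *Arntl* stood at 17.1 CPM in young and 6.98 CPM in old cells, a log2 ratio of -1.18. Its young runs were at 0.24, 0.68 and 65.8 CPM and its old runs at 0.55, 3.47 and 15.7 CPM, so the old runs lay inside the young spread. The ratio was 3.75 in range 1 alone, where 1 young and 1 old cell had a count, and -3.09 in range 2 alone, and 0.68 when the top cell at each age was left out. In mOPr the log2 ratio was 1.49 overall but 1.93 in range 2 and -2.71 in range 1, where 77 young and 4 old counts were found. *Arntl* thus gave no steady direction with age in either population.

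In the other populations *Arntl* was higher in old OPr (log2 ratio 0.57) and old AEC (0.54) and lower in old MSC-S and old SEC. It stood at 30.5 CPM in young and 13.9 CPM in old MSC-S (log2 ratio -1.08), with young runs from 9.73 to 57.3 CPM and old runs from 5.50 to 26.6 CPM, and the ratio was -0.03 in range 1. In SEC it stood at 8.57 and 2.65 CPM (log2 ratio -1.39), where 11 of 70 young and 6 of 71 old cells had a count. Its SEC runs overlapped, from 1.02 to 18.2 CPM in young and from 0.14 to 6.44 CPM in old cells. A single SEC cell held 66.5% of the young and another 67.3% of the old counts. In range 2 of old OPr no cell had an *Arntl* count, which allows up to 0.235 CPM, whereas range 1 of old OPr had 39.2 CPM. The higher old levels of OPr and AEC did not hold without the top cell at each age. OPr then stood at 3.38 CPM in young and 0.35 CPM in old cells, and AEC at 18.997 and 14.4 CPM. In AEC the *Arntl* ratios of single ranges ran from -2.14 to 1.21.

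*Clock*, the other partner, is a long transcript that was found in 75.2% of cells. Over the 12 groups its level ran from 67.1 CPM in young mOPr to 163 CPM in young AEC, a factor of 2.43, against 15.4 for *Arntl*. Its runs spread more widely, from 39.9 CPM in a young to 252 CPM in an old run of MSC-L. In mOPr it was higher in old cells, at 152 against 67.1 CPM (log2 ratio 1.17), with young runs at 64.3 and 88.1 CPM and old runs at 86.8 and 192 CPM. The ratio was -0.02 in range 1 and 1.98 in range 2, so the old excess lay in 1 range. In the remaining populations the log2 ratio of *Clock* lay between -0.41 in AEC and 0.48 in MSC-L, with opposite signs in ranges 1 and 2 of MSC-L (-0.57 and 0.80) and of MSC-S (-0.45 and 0.64).

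Among the repressors, *Per3* set MSC-L apart. This gene encodes a PER protein that is dispensable for rhythm in mice and whose transcript cycles in many tissues. Its level was 255 CPM in young and 415 CPM in old MSC-L, against 32.9 to 177 CPM in the 10 other groups. All 6 MSC-L runs, from 243 to 514 CPM with a median of 302 CPM, lay above all 29 runs of the other populations, whose highest stood at 186 CPM. No other clock gene separated its MSC-L runs from the rest, so 1 of 10 did where 0.617% of 19770 genes did.

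No clock gene separated the runs of any other population from the rest. The count was 0 of 10 in MSC-S where 0.177% of all genes were separated, in mOPr where 0.0405% were, in OPr where 0.0202% were, in AEC where 0.556% were and in SEC where 0.971% were. These comparisons of populations were added after the levels of *Per3* had been seen. In MSC-L the level of *Per3* was 255 CPM in young and 514 CPM in old cells of range 1, and 255 and 362 CPM in those of range 2, and MSC-L had no cells in range 3.

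The level of *Per3* also followed the study's clusters. It was 267 CPM in cluster M1 and 347 CPM in M2, the MSC-L-like clusters, where 80 of 86 and 43 of 50 cells had a count. The next levels were 160.1 CPM in E1, which the study called doublets, 97.1 CPM in E7 (SEC-like) and 88.5 CPM in M4 (OPr-like). In the MSC-S-like clusters *Per3* lay between 30.6 and 65.8 CPM.

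With age, *Per3* was higher in old MSC-L by a log2 ratio of 0.70, and its young runs (243, 255 and 263 CPM) all lay below its old runs (342, 377 and 514 CPM). The ratio was 1.01 in range 1 and 0.50 in range 2. *Per3* was also higher in old mOPr, where young runs stood at 42.6 and 54.7 CPM and old runs at 162 and 186 CPM (log2 ratio 1.74), and in old OPr, where young runs stood at 24.4, 65.7 and 91.1 CPM and old runs at 122 and 156 CPM (log2 ratio 1.18). The old groups of both populations were also those with more MSC-L markers.

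Within old OPr, the 10 cells of clusters M1 and M2 had 238 CPM of *Per3*. The 19 cells of clusters M3 to M5 had 42.6 CPM, of which the 8 with hematopoietic markers had 0.37 CPM and the 11 others 77.9 CPM, beside 53.2 CPM in the 36 young OPr cells of M3 to M5. Without the M1 and M2 cells the log2 ratio of *Per3* in OPr was -0.46, with those 8 cells still counted. In old mOPr the 14 cells of M1 and M2 had 225 CPM and the 12 cells of M3 to M5 had 123 CPM, against 0.68 CPM in the 8 young mOPr cells of M3 to M5, and the ratio without the M1 and M2 cells was 1.15. In old OPr *Per3* was thus highest in the cells of M1 and M2. In old mOPr both sets of clusters stood above the 52.4 CPM of all young mOPr cells. Within a set, the ages were compared in M3 to M5 alone, since only 2 young mOPr cells lay in M1 and M2 and their level is not given.

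*Per1* encodes the PER protein whose gene also answers within minutes to cAMP and stress signals. It was present in 84.3% of cells and ran from 112 CPM in old MSC-S to 320.4 CPM in old OPr. In OPr it was higher in old cells, with young runs at 128, 157 and 169.6 CPM and old runs at 253 and 388 CPM, a log2 ratio of 1.07. Without the 8 old OPr cells that carried hematopoietic markers the ratio was 0.10. Those 8 cells had 790.3 CPM of *Per1*, against 183 CPM in the 11 other old OPr cells of M3 to M5 and 149.8 CPM in the 10 of M1 and M2. Most of the higher level of old OPr was thus no longer seen without those 8 cells.

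In MSC-L *Per1* depended on the run more than on age. Its young runs stood at 44.9, 98.5 and 432 CPM and its old runs at 48.2, 151 and 169 CPM, so the highest and the lowest run were both young. Both of those runs lay in range 2. In the young cells of range 2 as a whole *Per1* stood at 198 CPM against 98.5 CPM in range 1, and immediate early genes, the fast answer of cells to stimulation and to dissociation, were higher there too. All 10 genes of that list were past 2-fold in range 2 over range 1 of young MSC-L, where 31.5% of all genes were, with a median log2 ratio of 3.45 against 0.03 over all genes tested, and *Fos* stood at 1755 against 87.8 CPM. In old MSC-L 6 of the 10 were past 2-fold and higher in range 2, against 36% of all genes past 2-fold either way, with a median log2 ratio of 1.87, while *Per1* was lower there, at 100.2 against 151 CPM (log2 ratio -0.58). The part of these genes in the level of *Per1* was not tested.

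*Per2*, which encodes the PER protein most needed for rhythm, stood lowest in MSC-S, at 15.7 CPM in young and 11.1 CPM in old cells. Its MSC-S runs lay between 1.13 and 28.5 CPM and overlapped with runs of the other populations, the lowest of which stood at 2.79 CPM. With age no ratio of *Per2* pooled over ranges reached 2-fold. In OPr this rested on 1 old cell, which held 51.5% of the old counts. Without the top cell at each age, OPr stood at 38.8 CPM in young and 16.5 CPM in old cells, past 2-fold. Single ranges differed, and the ratio was -3.93 in range 1 and 0.06 in range 2 of OPr, and -0.99 and 1.21 in mOPr. The nearest pooled ratio was in AEC, at 23.7 CPM in young and 45.8 CPM in old cells (log2 ratio 0.92), with ratios of 0.43, 0.81 and 1.55 in ranges 1, 2 and 3, yet young runs from 5.28 to 39.3 CPM and old runs from 4.72 to 83.5 CPM overlapped.

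*Cry1*, the stronger of the CRY repressors and a late gene of the cycle, was found in 29.7% of cells. In MSC-S it stood at 27.8 CPM in young and 6.99 CPM in old cells, a log2 ratio of -1.85, and its young runs (13.4, 18.7 and 54.3 CPM) all lay above its old runs (2.77, 5.98 and 12.2 CPM). It was found in 23 of 59 young and 14 of 59 old MSC-S cells, and the ratio was -1.04 in range 1 and -2.14 in range 2. Among the sparse genes, this was the difference with age that held in both ranges and over the runs.

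In MSC-L the reverse was measured for *Cry1*, on fewer cells. Its level was 6.53 CPM in young cells, 7 of 53 with a count, and 42.0 CPM in old cells, 12 of 58 with a count, a log2 ratio of 2.51. A single old cell held 63.1% of the counts, and the ratio was -1.94 in range 1 and 4.27 in range 2. In mOPr 1 old cell held 85.9% of the counts, and the ratio of 1.83 was -0.15 when the top cell at each age was left out.

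*Cry2*, the partner of *Cry1* that represses more weakly, was highest in old mOPr at 219 CPM and lowest in young SEC at 52.6 CPM. Its runs lay between 122 and 187 CPM in MSC-S and between 38.5 and 102 CPM in SEC. SEC had cells in range 3 alone, where AEC stood at 137 CPM in young and 226 CPM in old cells, and MSC-S had none there. No ratio of *Cry2* with age reached 2-fold when ranges were pooled, and these lay between -0.23 in OPr and 0.46 in SEC. In OPr this rested on 1 old cell, which held 50.8% of the old *Cry2* counts. Without the top cell at each age, OPr stood at 159.5 CPM in young and 76.01 CPM in old cells, past 2-fold. The ranges differed in sign in MSC-S (0.21 in range 1 and -0.26 in range 2), in OPr (-1.14 and 0.06) and in AEC (-1.61, -0.01 and 0.72 in ranges 1, 2 and 3).

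*Nr1d1*, which encodes REV-ERB alpha, was the highest in young mOPr, at 822 CPM, and lowest in young SEC, at 174 CPM. In young mOPr all 26 cells had a count and the median cell stood at 527 CPM, in old mOPr 21 of 26 cells had a count and the median cell stood at 194 CPM. The young mOPr runs (761 and 866 CPM) lay above the old runs (396 and 427 CPM), and the log2 ratio of -0.98 was just short of 2-fold. *Dbp* was also lower in old mOPr.

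The mOPr of the 2 ages also differed in make-up. Of the young cells, 16 lay in the MSC-S-like clusters M6 to M16, with 1040.2 CPM of *Nr1d1* and 264 CPM of *Dbp*, and 8 in M3 to M5, with 457 CPM and 81.7 CPM. The old cells lay in M3 to M5 (12 cells, 378 CPM of *Nr1d1* and 57.9 CPM of *Dbp*) or in M1 and M2 (14 cells, 448 CPM and 77.6 CPM). The remaining 2 young cells lay in M1 and M2. Within M3 to M5, the levels of both genes in young and old cells lay closer together than in all cells, with a log2 ratio of -0.27 for *Nr1d1* and -0.49 for *Dbp*. The part of the changed make-up in the ratios was not tested.

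In the other populations *Nr1d1* was lower in old cells of MSC-S (log2 ratio -0.49), OPr (-0.50) and AEC (-0.40), level in MSC-L (-0.01, interval -0.06 to 0.03) and higher in SEC (0.49). None of these pooled ratios reached 2-fold. In OPr the ratio was -0.02 in range 1 and -1.09 in range 2. In MSC-L the ratio was -0.87 in range 1 and 0.31 in range 2, with old runs from 223 to 718 CPM. In MSC-S and AEC the ratio was below 0 in each range, from -0.28 to -0.77, but the runs overlapped in both: in AEC young runs ran from 457 to 615 CPM and old runs from 268 to 525 CPM. In OPr the level depended on the cells counted: the 10 old cells of M1 and M2 had 607 CPM, the 8 old cells of M3 to M5 with hematopoietic markers had 0.19 CPM and the 11 others of M3 to M5 had 86.6 CPM.

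SEC had the lowest *Nr1d1* of the 6 populations. Its runs stood at 99.0 to 279 CPM with a median of 209 CPM, against 268 to 615 CPM in AEC, so a narrow overlap was left between the 2 endothelial populations. Range 3 held all SEC cells, and in the same range AEC stood at 457 CPM in young and 268 CPM in old cells. *Nr1d2*, which encodes REV-ERB beta, showed no such gap: it ran from 92.8 CPM in old mOPr to 156 CPM in old MSC-L, a factor of 1.69 over the 12 groups, the smallest of the 10 genes, with single runs from 55.7 to 199 CPM. No ratio of it with age reached 2-fold when ranges were pooled, but it was -1.09 in range 1 and 0.22 in range 2 of OPr, and 0.30, -0.01 and 1.07 in ranges 1, 2 and 3 of AEC.

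*Dbp*, which encodes a transcription factor of the PAR bZIP family and is a direct output of the clock, showed opposite differences with age in 2 populations. In mOPr it stood at 195 CPM in young and 68.2 CPM in old cells, a log2 ratio of -1.50, with young runs at 165 and 234 CPM and old runs at 54.3 and 76.8 CPM. In SEC it stood at 55.7 CPM in young and 116 CPM in old cells, a log2 ratio of 1.04. Its SEC runs alternated between the ages along the library numbers, with young runs at 41.3, 73.3 and 51.6 CPM and old runs at 155, 113 and 75.7 CPM in that order, and each old run lay above each young run. Marker sums in SEC shifted with age too. AEC markers stood at 250 CPM in young and 1130 CPM in old SEC, SEC markers at 15184.5 and 11842.7 CPM, and hematopoietic markers at 176 and 461 CPM. AEC of range 3 had 137 CPM of *Dbp* in young and 108 CPM in old cells. The part of these shifts in the *Dbp* level of SEC was not tested. In the remaining populations the log2 ratio of *Dbp* with age was -0.51 in MSC-S, 0.18 in OPr, 0.00 in MSC-L and -0.02 in AEC.

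Among the 10 clock genes *Dbp* was also the one that differed most steadily in sign between library-number ranges, singled out after the values were seen. It was lower in range 2 than in range 1 in 9 of 10 groups of population and age, the exception being old mOPr, where it stood at 76.8 against 54.3 CPM. It stood at 207 CPM in range 1 and 77 CPM in range 2 of young MSC-S, at 167 and 73.8 CPM in young MSC-L, and at 151 and 61.2 CPM in old OPr. Only these 3 of the 10 ratios were past 2-fold. The share of all genes with a single sign in 9 of 10 groups is not given. The signs of these 10 ratios between ranges were the same under each alternative scaling. Within range 2 the MSC-L runs differed as well, at 125 (young) and 115 CPM (old) for the earlier library numbers and at 40.5 and 50.7 CPM for the later ones, a feature singled out after its values were seen. The cells of the 2 ranges may differ in the time of day, the animal or the plate, which cannot be told apart here.

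**Figure D3:**
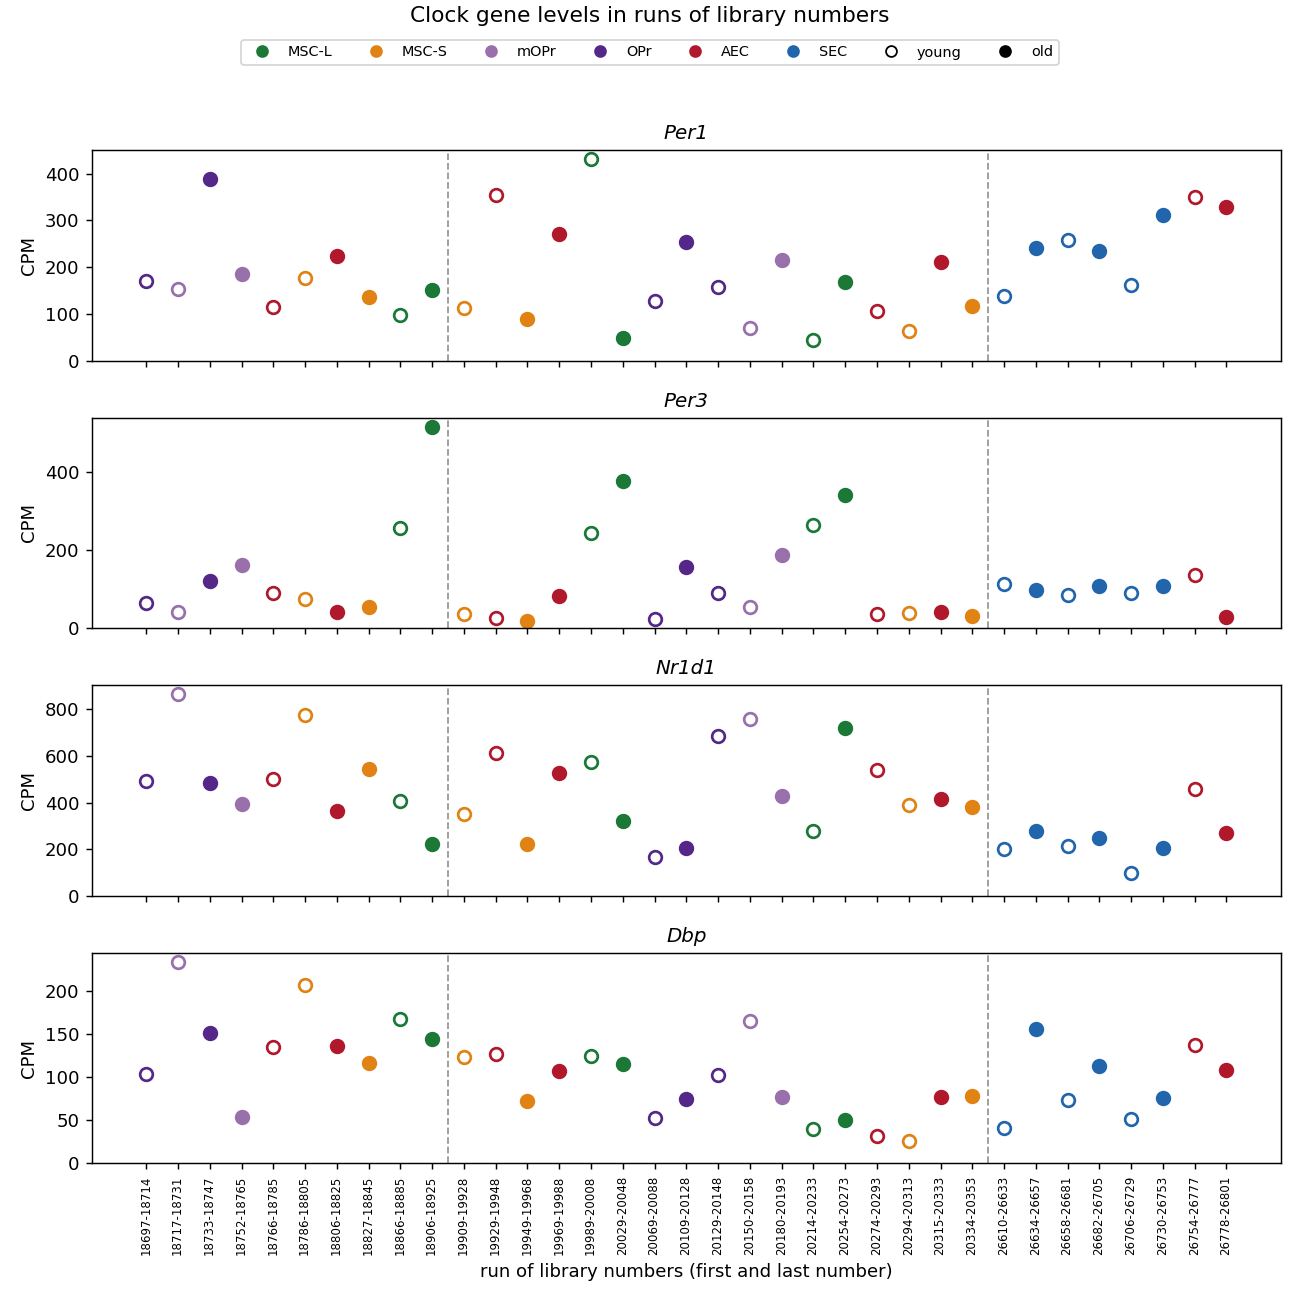
Level in CPM of *Per1*, *Per3*, *Nr1d1* and *Dbp* in each run of at least 8 cells, in order of library number, with dashed lines between the 3 ranges and open circles for young and filled circles for old. *Per3* stands at 243 CPM or more in the 6 MSC-L runs and at 186 CPM or less elsewhere, while *Per1* and *Dbp* vary between runs of 1 group.

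Across ranges, 29 of 99 tested ratios of range 2 over range 1 were past 2-fold. In young MSC-L 5 of 10 clock genes were, against 31.5% of all genes, and in old MSC-L 4 of 10 against 36%. In young MSC-S 3 of 10 were against 33.2%, and in old MSC-S 2 of 10 against 34%. The young cells of mOPr had 1 of 10 against 42.9%, and the old cells 3 of 10 against 49.5%.

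For OPr the counts were 1 of 10 in young cells, where 42.9% of all genes were past 2-fold, and 6 of 9 in old cells, where 55.9% were. For AEC they were 2 of 10 in young cells against 34.2% and 2 of 10 in old cells against 35.8%.

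*Arntl* and *Dbp* peak at opposite times in most tissues, and their contrast within a group depends on the scaling between groups only through the 1 CPM added to both. The log2 ratio of *Dbp* over *Arntl* ran from 0.73 in old mOPr to 5.00 in old SEC over the 12 groups, with a median of 2.56. That of *Nr1d1* over *Arntl* lay between 3.31 and 6.07 over the 12 groups. *Arntl* was the lower gene throughout, so the sign of the contrast marks no clock phase and only its spread over the groups is described.

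From cell to cell the clock genes were only loosely tied. Spearman's rho of CPM over the cells of a group, for 45 pairs of genes, had a median of 0.09 over the pairs' medians, and 35 of 45 medians were above 0. The highest were *Per3* with *Dbp* (median 0.33, from 0.01 to 0.77, above 0 in 12 of 12 groups of 26 to 84 cells) and *Nr1d1* with *Dbp* (median 0.32, above 0 in 12 of 12). The lowest was *Arntl* with *Per3* at a median of -0.12. Cells of a group share preparation and differ in depth, the counts are sparse, and these values are a description. The rho of pairs of other genes is not given beside them.

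Over groups, the likeness of other genes to *Dbp* and *Arntl* was measured by Pearson's r of log2 levels over the 24 groups of population, age and range, after the mean of each population was taken out, among 12122 other genes. For *Dbp* the highest were *Lsg1* (0.75), *Skp1a* (0.72), *Pygl* (0.72), *Mrpl15* (0.71) and *Mlx* (0.70), and the lowest *Panx1* (-0.75), *Tcaim* (-0.76) and *RP23-465A17.7* (-0.78). For *Arntl* the highest were *Gm5801* (0.79), *Ube2j2* (0.78), *Tsta3* (0.76), *Cog8* (0.76) and *Zfp560* (0.75), and the lowest *Mkl1* (-0.75), *Nob1* (-0.78) and *Ergic2* (-0.80). None of these is a clock gene. Of the other clock genes *Nr1d1* came nearest to *Dbp*, at rank 91 with an r of 0.57, and it also came nearest to *Arntl*, at rank 1050 with an r of 0.35.

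Of 26 further genes of the clock, such as the kinases, ubiquitin ligase parts and bZIP factors around the core loop, 3 of 23 tested were past 2-fold with age in MSC-L, 6 of 24 in MSC-S, 7 of 23 in mOPr, 8 of 24 in OPr, 1 of 22 in AEC and 8 of 22 in SEC. The shares of all genes tested were 25.4%, 19.7%, 44.5%, 45.2%, 21.1% and 20.7% in the same order. In SEC 5 of those 8 were higher and 3 lower in old cells, and those named next were chosen after their values were seen. *Hlf*, which encodes a PAR bZIP factor like *Dbp*, stood at 9.39 CPM in young and 34.2 CPM in old SEC, while *Tef*, the other gene of that family, stood at 209 and 227 CPM. *Nfil3*, whose protein competes with them for the same DNA letters, stood at 20.7 CPM in young and 1.79 CPM in old SEC, on 15 of 70 and 5 of 71 cells, with 49.9% of the young counts in 1 cell. *Bhlhe40*, whose protein represses at E-boxes, stood at 409 CPM in young and 162 CPM in old SEC, with a count in 60 of 70 and 40 of 71 cells.

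Glucocorticoid-responsive genes, which carry a daily hormonal signal to many tissues, were past 2-fold with age in 1 of 10 cases in MSC-L, 0 in MSC-S, 3 in mOPr, 2 in OPr, 3 in AEC and 2 in SEC. Immediate early genes were in 2 of 10 cases in MSC-L, 2 in OPr and 0 in each of the 4 other populations. These counts, pooled over ranges, stand beside the same shares of all genes, from 19.7% in MSC-S to 45.2% in OPr. In MSC-L and OPr the ranges went opposite ways, with a median log2 ratio of the immediate early genes of 1.63 in range 1 and -0.34 in range 2 of MSC-L, and of -1.71 and 0.79 in OPr. In SEC, where *Dbp* was higher in old cells, the median log2 ratio was 0.11 for the first list and 0.02 for the second, against 0.05 over all genes tested.

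Promoters are shown because *Dbp*, its competitor *Nfil3* and the BMAL1 and CLOCK pair act through short DNA motifs. RefSeq windows of 250 bases before the transcript start (GRCm38.p6) were at hand for 9 of the 10 genes, 13 windows in all. The E-box CACGTG, bound by BMAL1 and CLOCK, lay in windows of *Per1* and *Cry1* and in 6.02% of 32851 windows of all genes. Its variant CACGTT, read as AACGTG on the other strand, lay in windows of *Cry1*, *Cry2* and *Nr1d1* and in 3.85% of all windows. The D-box, searched as TTATGTAA or TTACGTAA, lay in the window of *Per3* alone among the 9 genes and in 0.931% of all windows. TAGGTCA or TGGGTCA, read by REV-ERB and ROR proteins, and TGACGTCA, read by CREB, were in none of the 13 windows and in 5.38% and 1.55% of all windows. Both strands were searched, and a match is a description of the letters only.

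The window of *Per3*, the gene that set MSC-L apart, is chr4:151044666-151044915 on the minus strand, with its D-boxes, 205 and 158 bases before the start, in capitals. That of *Cry1*, lower in old MSC-S, is chr10:85185055-85185304 on the minus strand, with AACGTG 79 and CACGTG 60 bases before the start in capitals. The first of 2 windows of *Per1*, the other of which had none of these motifs, is chr11:69098699-69098948 on the plus strand, with CACGTG 166 bases before the start in capitals, and that of *Nr1d1*, the gene with the highest level, is chr11:98775378-98775627 on the minus strand, with AACGTG 28 bases before the start in capitals.
Per3: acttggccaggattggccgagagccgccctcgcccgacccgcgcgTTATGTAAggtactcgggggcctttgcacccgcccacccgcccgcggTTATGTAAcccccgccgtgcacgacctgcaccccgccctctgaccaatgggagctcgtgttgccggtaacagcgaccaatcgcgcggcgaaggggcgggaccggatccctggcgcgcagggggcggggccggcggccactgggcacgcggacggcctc
Cry1: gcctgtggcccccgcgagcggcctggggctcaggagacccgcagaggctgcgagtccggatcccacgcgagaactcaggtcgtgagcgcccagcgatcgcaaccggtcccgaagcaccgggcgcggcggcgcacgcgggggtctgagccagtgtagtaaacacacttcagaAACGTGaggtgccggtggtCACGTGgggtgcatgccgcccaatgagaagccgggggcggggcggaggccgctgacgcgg
Per1: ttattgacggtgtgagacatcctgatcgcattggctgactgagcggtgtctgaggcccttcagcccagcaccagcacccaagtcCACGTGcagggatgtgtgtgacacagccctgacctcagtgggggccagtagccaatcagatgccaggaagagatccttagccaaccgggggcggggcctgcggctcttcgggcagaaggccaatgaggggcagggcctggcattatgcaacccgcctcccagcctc
Nr1d1: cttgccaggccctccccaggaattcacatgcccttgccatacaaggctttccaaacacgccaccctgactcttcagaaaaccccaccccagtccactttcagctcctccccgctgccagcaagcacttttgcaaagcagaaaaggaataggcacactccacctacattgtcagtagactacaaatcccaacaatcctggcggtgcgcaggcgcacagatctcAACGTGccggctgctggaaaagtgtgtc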

How the data were processed

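The deposited value of each cell and gene is a count of reads: the authors aligned reads with GSNAP (2015-09-29) to GRCm38.p4 and counted them per Ensembl gene with HTSeq without regard to strand. The table has 46078 entries; 270 duplicate symbols were summed, which left 45771 nuclear and 37 mitochondrial genes. Population, age, library number and cluster came from the labels. All other values were computed here: CPM of nuclear gene counts summed over a group, exact Poisson intervals for CPM, exact Clopper-Pearson intervals for shares of cells (both 95%, with a floor of 3 counts), and log2 ratios with 1 CPM added. A gene entered a count of genes if the groups compared held 100 counts of it or more, spread over 5 cells or more; single values of the 10 clock genes are given below that filter too. Levels per kb used the union of exons in GENCODE vM21, which may differ from the annotation the authors counted on.

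Ages were compared within each population, and again inside each range of library numbers that held 5 or more cells of both ages. Range 2 was compared with range 1 within each population and age, and runs of at least 8 cells were compared by overlap. Beside counts of genes past 2-fold, separated between runs, or of a single sign in every range, stands the percent of all genes that met the same rule. No test was run, because no replicate is named.

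The genes named were the 10 clock genes, 26 further clock genes, 10 glucocorticoid-responsive and 10 immediate early genes, the marker lists, and the 5 genes most and 3 least like *Dbp* and *Arntl* among those with at least 1000 counts in at least 10% of cells. Members and lists were chosen with earlier results of these data known.

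The alternatives were size factors by the median of ratios, an average of the CPM of single cells, thinning of each cell to 100000 counts, 0.1 CPM in place of 1 CPM, no filter on low counts, cells grouped by the study's clusters, omission of cells with at least 7 of 15 hematopoietic markers, omission of the highest cell, each range alone and equal weight for each range. After the data were seen, 4 more were added: without M1 and M2 cells in OPr and mOPr, M3 to M5 cells alone in mOPr, without E1 and E2 cells in AEC and SEC, and without the highest run of each age. The comparison of the runs of 1 population with those of the others was also added then.

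Versions were Python 3.11.15, scipy 1.17.1, pandas 2.3.3, matplotlib 3.10.9 and numpy 2.4.6. The ratio of old over young was tested on simulated data for MSC-S alone. Those data held no differences between library-number ranges, so the test cannot show how the ratio behaves where ranges differ.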

Additional observations from a re-analysis of the deposited data

Results flagged for a closer look

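The ratio of old over young had opposite signs in 2 populations, past 2-fold in both, for 3 clock genes. The share of all genes that met this rule is not given. In single populations 19.7% to 45.2% of all genes were past 2-fold either way. For *Arntl* the log2 ratio in mOPr exceeded that in MSC-L by 2.67, that in MSC-S by 2.58 and that in SEC by 2.88. For *Cry1* the log2 ratio in MSC-L exceeded that in MSC-S by 4.36, and that in mOPr exceeded that in MSC-S by 3.68. For *Dbp* the log2 ratio in SEC exceeded that in mOPr by 2.55. None of these differences was tested, since each population of one age is 1 sample. The *Arntl* and *Cry1* ratios of both mOPr and MSC-L changed sign between library-number ranges. The *Dbp* ratio of mOPr was below 0 in both of its ranges, and SEC had cells in 1 range.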

How the results depend on the processing

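The 13 age ratios past 2-fold gave 137 values under the alternatives, of which 125 had the same direction, 101 were still past 2-fold and 12 changed sign. The 30 ratios of range 2 over range 1 of this size, with *Arntl* in old OPr below the filter on counts, were recomputed only under thinning, the mean of CPM, size factors and the smaller pseudocount, and gave 120 values, of which 120 had the same direction and 111 were still past 2-fold. Omission of the highest cell was not run for them, and in young MSC-L 377 of 387 *Arntl* counts of range 2 lay in 1 cell. *Per3* in mOPr (1.15 to 6.22) was past 2-fold under 11 of 11 alternatives, *Cry1* in MSC-S (-2.14 to -1.04) under 10 of 10, *Arntl* in SEC (-2.25 to -1.06) under 9 of 9 and *Dbp* in SEC (0.95 to 1.20) under 7 of 9. *Dbp* in mOPr (-2.08 to -0.49) was under 10 of 11, and not among the cells of M3 to M5 alone (-0.49).

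Changes of sign were these, and the cause was not tested. *Arntl* in MSC-L (-1.18) was 0.68 without the highest cell of each age, 3.75 in range 1 alone, 0.33 with equal weight for each range and 1.13 without the highest run of each age. *Arntl* in mOPr (1.49) was -2.71 in range 1 alone, -0.39 with equal weight and -2.31 without the highest run. *Cry1* in MSC-L (2.51) was -1.94 in range 1 alone, and *Cry1* in mOPr (1.83) was -0.15 without the highest cell and -0.10 in range 1 alone. *Clock* in mOPr (1.17) was -0.0204 in range 1 alone, and *Per3* in OPr (1.18) was -0.46 without cells of clusters M1 and M2.

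The number of clock genes past 2-fold with age, among those that met the filter over all cells, changed by more than a factor of 1.5 as follows, and the cause was not tested. In MSC-L it was 1 in place of 2 with the mean of CPM over cells (27.2% of all genes), with thinning (27.3%), without the highest cell and with equal weight (26%). In MSC-S it was 1 in place of 2 with thinning (21.3% of all genes), in range 1 alone (38.7%), with equal weight (21.6%) and without the highest run. In mOPr it was 3 in place of 5 with equal weight (46.3% of all genes) and without the highest run, and 8 without M1 and M2 cells (56.2%). In OPr it was 1 in place of 2 with median-of-ratios size factors (45% of all genes) and 6 in range 1 alone (60.7%), with *Arntl* included, which is below the filter there. It was 5 without M1 and M2 cells (54.2%) and 6 without the highest run. In AEC it was 1 in place of 0 with the mean of CPM, with thinning and in range 2 alone, and 3 in range 1 alone and in range 3 alone. The shares of all genes there were 21.5%, 22.2%, 32.2%, 43% and 40.9% in the same order. In SEC it was 1 in place of 2 with median-of-ratios size factors, against 20.4% of all genes. Shares of all genes without the highest cell or the highest run are not given.

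For range 2 over range 1 the number was 3 in place of 5 with thinning in young MSC-L, against 32.7% of all genes. It was 5 in place of 3 with the mean of CPM (34.1%) and with thinning (35.8%) in young MSC-S. In young mOPr it was 2 in place of 1 with the same 2 settings (44.7% and 46%). Median-of-ratios size factors moved the median log2 age ratio of all genes from 0.14 to -0.02 in OPr and from 0.11 to -0.01 in mOPr.

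Without the filter on low counts, the percent of all genes past 2-fold with age was 36.8 in mOPr in place of 44.5 and 32.4 in OPr in place of 45.2. Thinning left out 7 cells and kept 654. A count was found in 18.6% of cells for *Arntl* and 29.7% for *Cry1*. No paired analysis was possible because the labels name no mouse.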
